A study of Mus musculus with 24 samples.

Results

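The 9 genes described here take up glutamine, release, bind or carry ammonia, or handle acid and bicarbonate in the kidney: Slc38a3, Glud1, Glul, Rhcg, Rhbg, Slc9a3, Slc4a4, Car2 and Car4. They were chosen by name, with earlier results of these data known, from probes whose annotation maps to these symbols. All 9 were among the 17736 genes tested. Male ICR mice gave whole-kidney RNA for 24 single-colour arrays, and the series text counts the groups in mice. Mice of the enarodustat group (n = 9) received alloxan at 90 mg/kg intravenously 3 days before grouping and then feed with 0.01% (w/w) enarodustat. Mice of the DKD group (diabetic kidney disease, n = 9) received the same alloxan dose and normal feed, and sham mice (n = 6) received vehicle and normal feed. Kidneys were collected 16 days after grouping, and the diabetic groups had been matched on blood glucose and body weight. Alloxan destroys the insulin-producing cells of the pancreas, and enarodustat stabilises hypoxia-inducible factor (HIF) by blocking the prolyl hydroxylases that target it for breakdown. Kidneys thus came from an early stage of insulin deficiency, at a mouse age that the labels do not state.

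The kidney removes acid largely as ammonium. Cells of the proximal tubule take up glutamine from the blood through the transporter encoded by Slc38a3 and release ammonia from it in their mitochondria, where glutamate dehydrogenase (Glud1) frees ammonia from glutamate. Glutamine synthetase (Glul) runs the opposite way and binds ammonia to glutamate. The Rh glycoproteins Rhcg and Rhbg let ammonia through cell membranes of the distal nephron and collecting duct. In the proximal tubule the sodium/proton exchanger Slc9a3 (NHE3) secretes protons into the lumen, the cotransporter Slc4a4 (NBCe1) returns bicarbonate to the blood, and the carbonic anhydrases Car2 (cytosolic) and Car4 (membrane-anchored) interconvert carbon dioxide and bicarbonate on either side of the membrane.

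Because the drug acts on HIF, promoter sequence was read for the core of the HIF binding motif. RefSeq windows (build GRCm38.p6) of the 250 bases before the transcription start were held for 6 of the 9 genes, in 7 windows. No window was held for Car2, Slc38a3 or Rhbg, so these were not searched. Car2 and Slc38a3 also passed a test below. ACGTG and GCGTG were searched on both strands. Either motif stood in 3 of the 7 windows, those of Glud1, Slc9a3 and the first of 2 Slc4a4 windows, against 38.6% of 32851 mouse promoter windows of the same length. The windows of Glul and Car4 are shown because both genes passed a test below, and that of Slc9a3 because it alone among the 7 held ACGTG. Capitals mark the motifs, and all 3 sequences run 5′ to 3′ along the gene.
Glul, chr1:153899679-153899928 (+ strand): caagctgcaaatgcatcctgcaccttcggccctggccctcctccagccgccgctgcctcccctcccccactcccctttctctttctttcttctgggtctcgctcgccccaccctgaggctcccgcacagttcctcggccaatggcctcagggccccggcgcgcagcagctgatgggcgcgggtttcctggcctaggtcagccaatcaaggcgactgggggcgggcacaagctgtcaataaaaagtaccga
Car4, chr11:84957504-84957753 (+ strand): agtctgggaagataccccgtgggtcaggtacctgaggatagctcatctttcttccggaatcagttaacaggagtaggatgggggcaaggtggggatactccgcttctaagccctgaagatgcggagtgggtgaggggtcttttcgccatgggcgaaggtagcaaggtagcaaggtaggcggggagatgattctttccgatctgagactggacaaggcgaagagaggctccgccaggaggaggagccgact
Slc9a3, chr13:74121163-74121412 (+ strand): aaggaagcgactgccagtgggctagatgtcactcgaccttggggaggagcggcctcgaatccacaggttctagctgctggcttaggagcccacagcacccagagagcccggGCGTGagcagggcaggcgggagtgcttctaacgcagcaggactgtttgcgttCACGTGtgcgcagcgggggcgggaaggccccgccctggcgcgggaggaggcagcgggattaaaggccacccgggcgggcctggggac
The windows of Glul and Car4 held neither motif. In Slc9a3, GCGTG began 139 bases before the start, and the 2 ACGTG matches, at 87 and 86 bases, were the overlapping strands of 1 palindrome, CACGTG. Glud1 held GCGTG 3 times and Slc4a4 held it 1 time. A match is a description of these letters and was not set against binding data.

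Levels are log2 signal minus the log2 of the array's 75th percentile signal, and differences are log2 differences ± SE from 1 limma fit over all 24 arrays. All 49 markers of nephron segments and podocytes fixed for the check of the tissue were tested, and 48 of them lay above background on every array. Within groups, arrays correlated at 0.964 to 0.991 across genes. Every slide of the 3 carried 3 enarodustat, 3 DKD and 2 sham arrays. The enarodustat arrays filled slide row 2, the sham arrays stayed in row 1, and the DKD arrays took up both (6 in row 1, 3 in row 2), so that between enarodustat and sham the row could be separated from the group only through the DKD arrays. The scanner software marked 1 array, enarodustat 3, for evaluation: the slope of its spike-in controls was 0.8865, outside the software's range, against 0.932 to 0.996 on the other 23 arrays. It was kept, and results that rest on it are given with and without it.

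The first comparison, DKD against sham, asked how untreated diabetic kidneys differed from sham kidneys in these genes. Both diabetic groups and no sham mouse received alloxan, so effects of alloxan itself and of diabetes cannot be told apart. Diabetic kidneys had 1.94 times the sham level of Car2 mRNA, 1.51 times the sham level of Slc38a3 mRNA and 0.556 times the sham level of Car4 mRNA. The other 6 genes did not pass the test. Of the 9 genes, 3 passed, where 11.6% of all genes tested did. The 2 genes that rose stood against 5.47% of all genes that rose, and the 1 that fell against 6.13% that fell. At an unadjusted p under 0.05 there were 4 of 9, where 24.8% of all genes were. Since the 9 were chosen with earlier results known, these shares, here and in the later comparisons, are a description and not a test. The median difference of the 9 genes was 0.19, against -0.01 over all genes tested. Of all genes called, 47.2% rose, and 29% did under array median scaling.

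**Figure D1:**
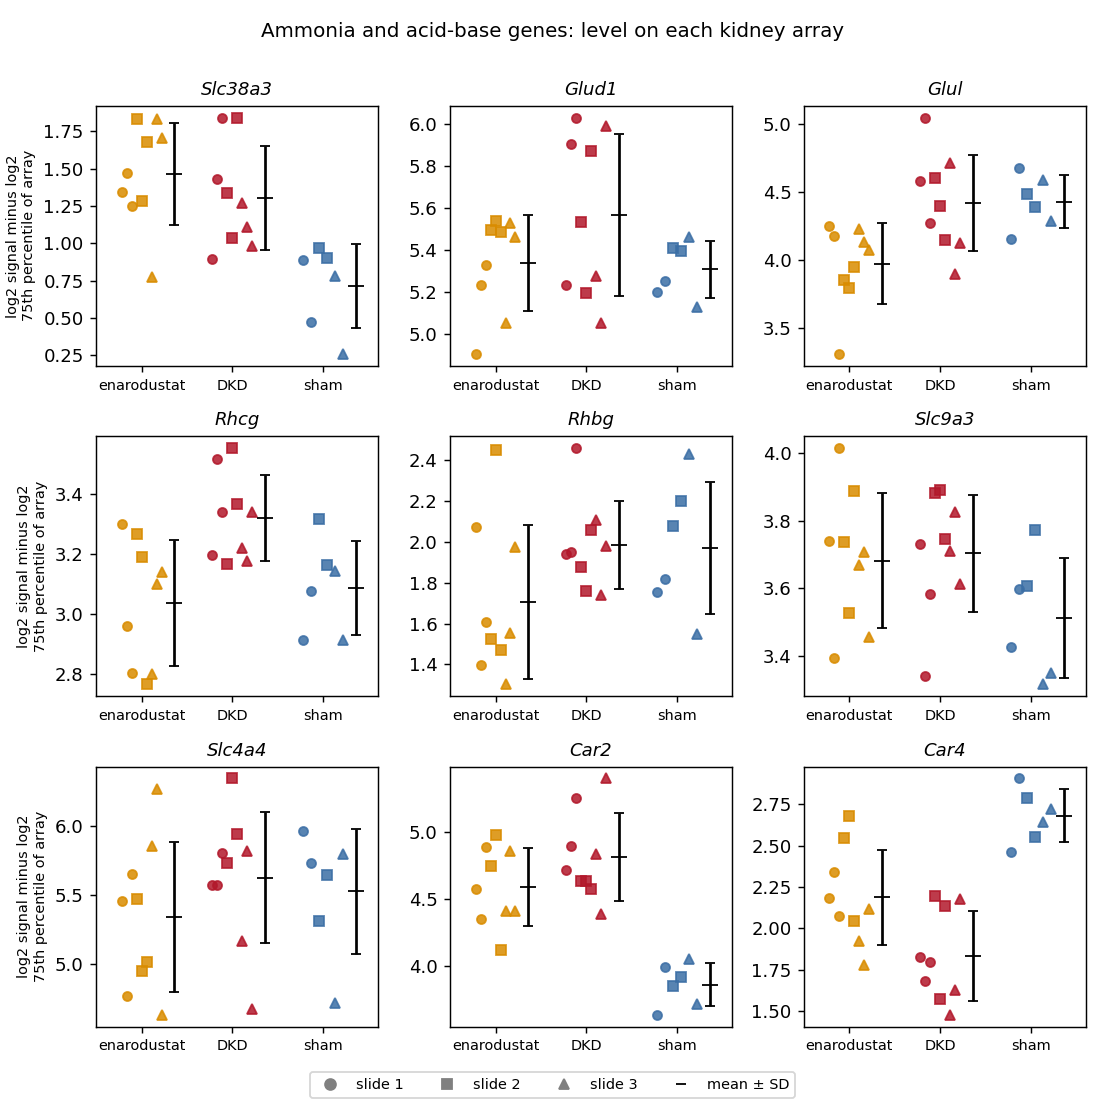
Level of each gene on each kidney array (vertical axis, log2 signal minus log2 75th percentile of the array, scales differ between panels) in enarodustat (n = 9), DKD (n = 9) and sham (n = 6) mice. Marker shape gives the slide and bars show mean ± SD; every DKD array lies above every sham array for Car2 and below every sham array for Car4.

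Slc38a3, the basolateral glutamine transporter, had a lowest, median and highest level of 0.89, 1.27 and 1.84 in DKD, against 0.26, 0.83 and 0.97 in sham. The groups overlapped at their edges, and all 9 DKD arrays lay above the sham mean. The difference was 0.59 ± 0.17 (adjusted p = 0.0243, limma), and 0.71, 0.47 and 0.60 within slides 1, 2 and 3. The call was lost under array median scaling (0.49, adjusted p = 0.18), with slide row as a term (0.47, adjusted p = 0.0912), and without sham 2 (0.55, adjusted p = 0.0653) or sham 6 (0.50, adjusted p = 0.0679).

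Glud1, which releases ammonia from glutamate, reached 5.05, 5.53 and 6.03 in DKD, against 5.13, 5.32 and 5.46 in sham. Its DKD arrays were more spread (SD 0.39, n = 9) than its sham arrays (SD 0.13, n = 6): 4 DKD arrays stood at 5.87 to 6.03 and the other 5 at 5.05 to 5.53. The 4 high arrays included all 3 DKD arrays of slide row 2. The difference of 0.26 ± 0.15 did not pass (adjusted p = 0.296), and was 0.0589 with slide row as a term (adjusted p = 0.816). Glul, which consumes ammonia, averaged 4.42 ± 0.35 in DKD and 4.43 ± 0.19 in sham (SD, n = 9 and 6), with a 95% interval of the difference of -0.33 to 0.31.

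Rhcg, the ammonia channel found on apical and basolateral membranes of the collecting duct, reached 3.17, 3.34 and 3.56 in DKD, against 2.91, 3.11 and 3.32 in sham. All 9 DKD arrays lay above the sham mean, and the groups overlapped. The difference of 0.23 ± 0.10 did not pass (adjusted p = 0.127). It did pass in the deposited value table (0.35, adjusted p = 0.0144), with normexp and quantile normalization (0.35, adjusted p = 0.0145) and with quantile normalization alone (0.34, adjusted p = 0.0364). Rhbg, its basolateral relative, averaged 1.99 ± 0.22 in DKD and 1.97 ± 0.32 in sham (SD, n = 9 and 6).

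The exchanger and the cotransporter of the proximal tubule did not pass either. Slc9a3 averaged 3.70 ± 0.17 in DKD and 3.51 ± 0.18 in sham, a difference of 0.19 ± 0.10 (adjusted p = 0.248). Slc4a4 averaged 5.62 ± 0.47 in DKD and 5.53 ± 0.45 in sham, and the interval of its difference, -0.42 to 0.61, was the widest of the 9.

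The 2 carbonic anhydrases went opposite ways. Car2 stood at 4.39, 4.71 and 5.40 in DKD, against 3.63, 3.88 and 4.05 in sham, and no DKD array overlapped with a sham array. Its difference was 0.95 ± 0.15 (adjusted p = 0.00018), and 1.14, 0.73 and 0.99 within the slides. Car4 stood at 1.48, 1.80 and 2.19 in DKD, against 2.46, 2.68 and 2.91 in sham, again with no overlap. Its difference was -0.85 ± 0.14 (adjusted p = 0.000267), and -0.91, -0.70 and -0.92 within the slides. Groups that did not overlap were found for 3.4% of all genes tested, 1.48% with DKD higher, as for Car2, and 1.92% with DKD lower, as for Car4. Both calls held in all 36 alternatives run, with Car2 at 0.82 to 1.05 and Car4 at -0.95 to -0.72.

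Markers of tubule cell types moved beside these results. Car2 is carried by both cell types of the collecting duct, and 7 of 8 principal cell markers were higher in DKD than in sham, with 0 lower, while 0 of 10 intercalated cell markers passed. The summed linear level of the principal cell markers, in multiples of the array's 75th percentile signal, ran from 43.3 to 53.1 in DKD and from 27.7 to 36.7 in sham. Under array median scaling 2 of the 8 passed. Intercalated cell markers summed to 21.9 to 32.7 in DKD and 23.9 to 31.9 in sham. Of the 7 markers of the straight proximal segment, 1 was higher and 3 were lower in DKD, with sums of 58.1 to 230.1 in DKD and 248 to 332 in sham. Of the 7 early proximal markers 1 was higher and 1 was lower, with sums of 499 to 659 in DKD and 591 to 727 in sham. Of 6 thick ascending limb markers 3 were higher and 2 lower, with sums of 176 to 245 in DKD and 243 to 281 in sham. Linear sums weigh the brightest markers most. Here that was Umod, with a mean level of 7.25 in DKD and 7.74 in sham. Umod was lower, while the 3 higher markers were dimmer. Of 5 distal convoluted tubule markers 1 was higher and 0 lower, with sums of 56.1 to 102 in DKD and 46.6 to 66.8 in sham. The higher one was Calb1, the brightest of these (5.78 in DKD and 5.01 in sham). Red blood cells also carry Car2. Of 6 erythroid markers tested of 9 listed, 0 were higher and 3 were lower in DKD. Their sums were 147 to 472 in DKD and 296 to 753 in sham. The globin marker Hba-a1 had a mean level of 6.85 in DKD and 7.79 in sham, and the listed marker Rhag was above background on no array. The count of 3 was 0 with slide row as a term and without sham 2, 3, 4 or 5 or DKD 8. The part of these markers in the Car2, Car4 and Slc38a3 results was not tested. In whole kidney, fewer cells of a type and less RNA per cell cannot be told apart.

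The second comparison, enarodustat against DKD, asked what the drug did on top of diabetes. None of the 9 genes passed the limma test (0 of 9, where 0.716% of all genes tested passed, 0.609% higher and 0.107% lower). At an unadjusted p under 0.05 there were 3 of 9, Rhcg, Glul and Car4, where 10.9% of all genes were (1937 of 17736). That count was 6 of 9 in the deposited value table (all genes 1843 of 15112) and with normexp and quantile normalization (all genes 2051 of 17736). It was also 6 of 9 with quantile normalization alone (2069 of 17736), and 2 of 9 under array median scaling (1416 of 17736). The median difference of the 9 genes was -0.23, against 0.0048 over all genes, and 2 of the 9 differences were positive. No gene of the 9 had groups without overlap, where 0.147% of all genes did. These values share the DKD arrays with the first comparison.

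**Figure D2:**
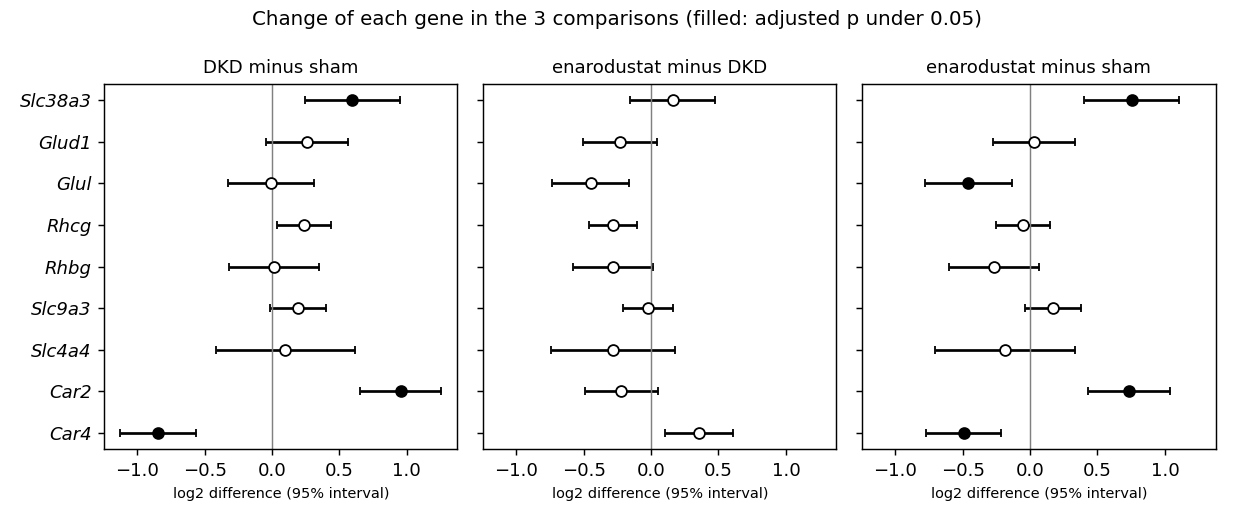
Log2 difference of each gene (horizontal axis, with its 95% interval) in the 3 comparisons, from the fit over all 24 arrays. Filled circles passed at an adjusted p under 0.05: 3 for DKD minus sham, 0 for enarodustat minus DKD and 4 for enarodustat minus sham.

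Glul stood at 3.31, 4.08 and 4.25 in enarodustat mice, against 3.90, 4.40 and 5.05 in DKD mice. All 9 enarodustat arrays lay below the DKD mean, though the groups overlapped. The difference was -0.45 ± 0.14 (adjusted p = 0.171, 95% interval -0.73 to -0.16). The lowest array was enarodustat 3, the one marked by the scanner software, and without it the difference was -0.36 (adjusted p = 0.266). The other 2 Glul probes were not low on that array: probe 2 stood at -0.07, the median of the enarodustat arrays, and probe 3 at 2.17, within their range of 2.12 to 2.53. Within the slides it was -0.72, -0.52 and -0.10.

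Rhcg stood at 2.76, 3.10 and 3.30 in enarodustat mice, against 3.17, 3.34 and 3.56 in DKD mice. All 9 enarodustat arrays lay below the DKD mean. The difference was -0.28 ± 0.09 (adjusted p = 0.161), and -0.33, -0.29 and -0.23 within the slides. Without enarodustat 3 it was -0.26 (adjusted p = 0.254). Car4 stood at 1.78, 2.12 and 2.68 in enarodustat mice, against 1.48, 1.80 and 2.19 in DKD mice, with 8 of 9 enarodustat arrays above the DKD mean. Its difference of 0.36 ± 0.12 did not pass (adjusted p = 0.232), and was 0.43, 0.46 and 0.18 within the slides. With slide row as a term the difference was 0.15 for Car4 (adjusted p = 0.755), -0.21 for Glul (adjusted p = 0.706) and -0.31 for Rhcg (adjusted p = 0.357).

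The remaining genes gave intervals that contained 0. For Slc38a3 the interval ran from -0.16 to 0.47, for Glud1 from -0.50 to 0.05, for Rhbg from -0.58 to 0.02, and for Car2 from -0.49 to 0.05. For Slc9a3 it ran from -0.21 to 0.17 and for Slc4a4 from -0.74 to 0.18. All 9 enarodustat arrays lay below the DKD mean of Glud1. With slide row as a term the differences were -0.63 for Glud1 (adjusted p = 0.106), -0.48 for Car2 (adjusted p = 0.296) and -0.46 for Rhbg (adjusted p = 0.409). Of 7 endothelial markers 4 were higher in enarodustat mice and 0 lower, with sums of 55.2 to 80.6 in enarodustat and 39.4 to 54.0 in DKD mice. That count was 0 under array median scaling and with slide row as a term. None of the principal cell, intercalated cell or proximal markers passed, and the count of erythroid markers that passed was 1 of 6, or 0 to 3 when single arrays were left out.

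The third comparison, enarodustat against sham, asked where treated diabetic kidneys stood relative to kidneys without diabetes. Slc38a3 and Car2 were higher and Car4 and Glul were lower in enarodustat mice, at 1.68, 1.66, 0.711 and 0.728 times the sham level. Of the 9 genes 4 passed, where 15.5% of all genes did. Of all genes, 8.74% rose and 6.75% fell, and rises made up 56.4% of the calls, or 29.9% under array median scaling. At an unadjusted p under 0.05 there were again 4 of 9, where 29.7% of all genes were. The median difference of the 9 was -0.05, against -0.016 over all genes tested.

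Slc38a3 stood at 0.78, 1.47 and 1.83 in enarodustat mice, against 0.26, 0.83 and 0.97 in sham mice. All 9 enarodustat arrays lay above the sham mean, and the groups overlapped through the lowest enarodustat array. The difference was 0.75 ± 0.17 (adjusted p = 0.00425), and 0.67, 0.67 and 0.92 within the slides. Car2 stood at 4.12, 4.57 and 4.98 in enarodustat mice, against 3.63, 3.88 and 4.05 in sham mice. The groups did not overlap, where 4.94% of all genes showed no overlap and 2.91% did so with enarodustat higher. Its difference was 0.73 ± 0.15 (adjusted p = 0.0016), and 0.79, 0.73 and 0.68 within the slides.

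Car4 stood at 1.78, 2.12 and 2.68 in enarodustat mice, against 2.46, 2.68 and 2.91 in sham mice, and all 9 enarodustat arrays lay below the sham mean. The difference was -0.49 ± 0.14 (adjusted p = 0.0155), and -0.48, -0.25 and -0.74 within the slides. Glul stood at 3.31, 4.08 and 4.25 in enarodustat mice, against 4.16, 4.44 and 4.68 in sham mice, a difference of -0.46 ± 0.16 (adjusted p = 0.0472). All 9 enarodustat arrays lay below the sham mean. Without enarodustat 3 the Glul call was lost (-0.37, adjusted p = 0.0847), and the other 3 calls held. Without that array 3 of the 9 genes passed.

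With slide row as a term, Car2 (0.34, adjusted p = 0.356), Slc38a3 (0.38, adjusted p = 0.398) and Glul (-0.10, adjusted p = 0.828) no longer passed, while Car4 did (-0.80, adjusted p = 0.0369). Slc38a3 also missed the threshold under array median scaling (0.61, adjusted p = 0.0616). The principal cell markers again stood beside Car2, 7 of 8 higher with 0 lower in enarodustat mice, with sums of 36.7 to 54.4 in enarodustat and 27.7 to 36.7 in sham mice. With slide row as a term 1 of the 8 passed, under array median scaling 2 did, and 4 did without sham 1 and 3 without sham 2. Of the 10 intercalated cell markers 3 were lower and 0 higher, with sums of 17.99 to 27.2 in enarodustat and 23.9 to 31.9 in sham mice. Under other settings 0 to 4 of these 10 passed. Straight proximal markers summed to 127 to 303 in enarodustat and 248 to 332 in sham mice, with 2 higher and 2 lower of 7, or 0 to 1 passing when any single sham array or enarodustat 1, 3, 4, 7 or 8 was left out. Early proximal markers summed to 499.9 to 584.6 in enarodustat and 591.4 to 726.7 in sham mice, with 0 higher and 2 lower of 7. Leaving out single arrays gave 1 to 2 passing. Distal convoluted tubule markers summed to 69.6 to 101 in enarodustat and 46.6 to 66.8 in sham mice, with 1 higher of 5, or 0 to 2 passing under other settings. Thick ascending limb sums were 180 to 269 in enarodustat and 243 to 281 in sham mice, with 2 higher and 2 lower of 6. Of the 7 endothelial markers 5 were higher and 0 lower, with sums of 55.2 to 80.6 in enarodustat and 43.4 to 50.8 in sham mice. With slide row as a term, or under array median scaling, 2 of the 7 passed. The part of these markers in the results was not tested.

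**Figure D3:**
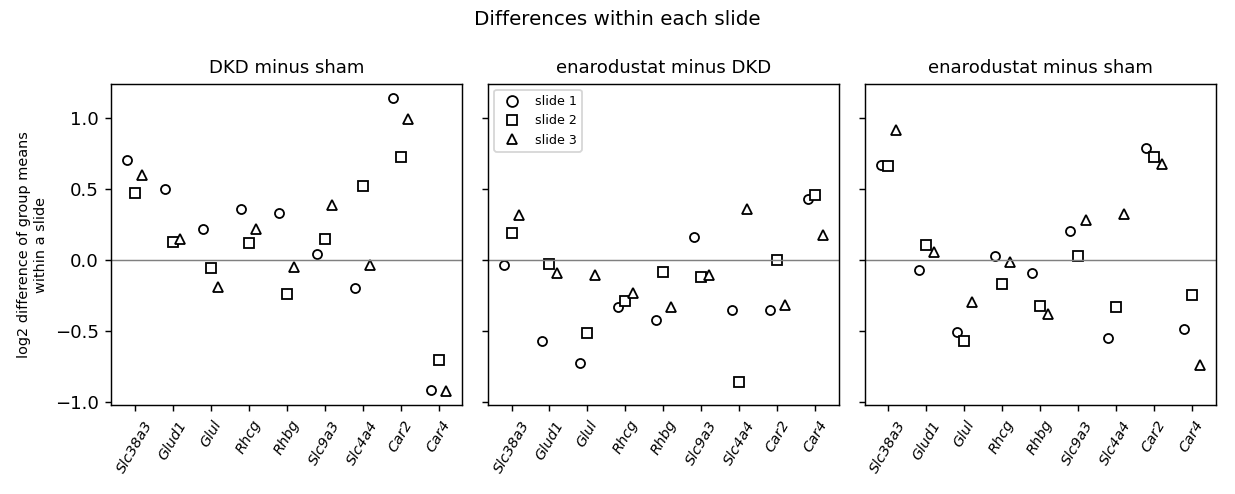
Log2 difference of group means within each slide (vertical axis) for the 9 genes in the 3 comparisons, with 1 marker shape for each of the 3 slides. For DKD minus sham, Car2 lies at 1.14, 0.73 and 0.99 and Car4 at -0.91, -0.70 and -0.92, while Slc4a4 takes both signs in every comparison.

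Across the 3 groups, the mean level was highest in DKD for 6 of the 9 genes, in sham for 2 (Glul and Car4) and in enarodustat for 1 (Slc38a3). Of those 6, Car2 alone passed a comparison in the fit with 1 probe per gene. Rhbg was 0.01 for DKD minus sham (adjusted p = 0.973, limma), and Slc9a3 -0.02 for enarodustat minus DKD (adjusted p = 0.975). The share of all genes with their highest mean in DKD was not counted, so these counts have no background. The step between DKD and sham did not pass for Glul (0.01 apart), nor did that between enarodustat and DKD for Slc38a3 (0.16 ± 0.15, SE). For Car4 the order was sham, enarodustat, DKD, and for Car2 it was DKD, enarodustat, sham. In both genes the step between enarodustat and DKD did not pass, and the step of each diabetic group from sham did.

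The 9 genes had 14 probes, all above background on every array and none saturated, and 4 genes had more than 1. In a fit over 25728 probes, with p-values adjusted over them, the second Glud1 probe gave 0.39 ± 0.12 for DKD minus sham and passed (adjusted p = 0.0393), where the brightest had 0.26 ± 0.15. That probe stood at 1.73, 2.11 and 2.64 in DKD, against 1.60, 1.77 and 1.88 in sham. On the DKD arrays of slide row 2 (DKD 3, 6 and 9) it stood at 2.64, 2.22 and 2.50, all above the DKD median. This probe was not fitted with slide row as a term. The other 2 Glul probes had differences for enarodustat minus sham of -0.29 ± 0.13 (adjusted p = 0.147) and -0.18 ± 0.13 (adjusted p = 0.377), in the direction of the brightest without passing. The second Slc4a4 probe differed in sign from the brightest for enarodustat minus DKD (0.06 against -0.28) and enarodustat minus sham (0.10 against -0.19). The second Slc9a3 probe differed in sign for enarodustat minus sham (-0.04 against 0.17).

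**Figure D4:**
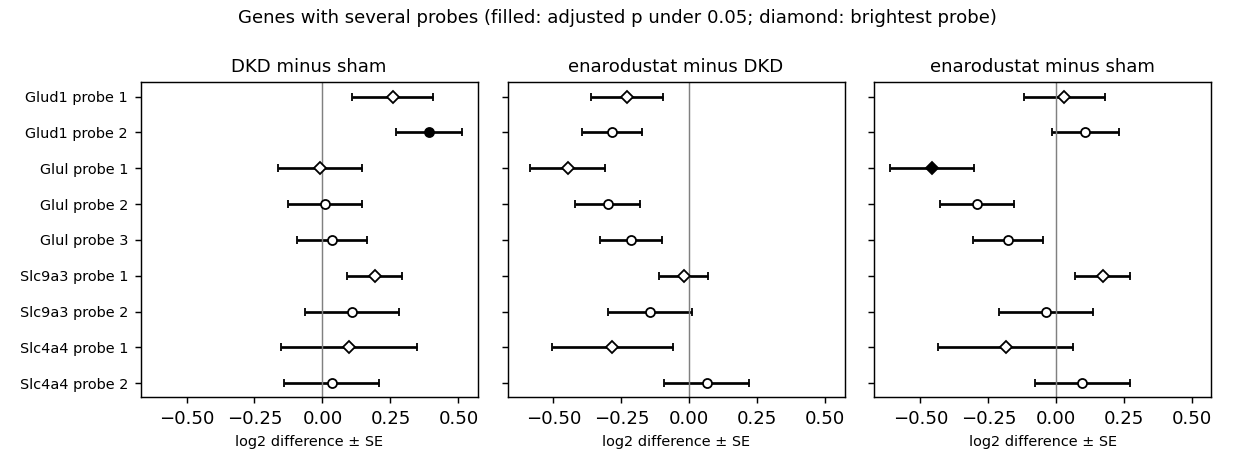
Log2 difference ± SE (horizontal axis) of every probe of the 4 genes with several probes, with the brightest probe as a diamond and the others as circles. Filled markers passed: Glud1 probe 2 for DKD minus sham (0.39) and Glul probe 1 for enarodustat minus sham (-0.46).

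How the genes varied among arrays of 1 group was described by Pearson's r of deviations from the group means over the 24 arrays, which share slides and array scaling. These deviations were not adjusted for slide row, which differed among the DKD arrays, and the part of slide row in them was not tested. Among the 9, Glud1 and Slc38a3 varied together most (r = 0.60), then Glud1 and Car2 (r = 0.56), Rhbg and Car2 (r = 0.51) and Rhcg and Rhbg (r = 0.50). The lowest was Rhbg with Slc4a4 (r = -0.42). The brightest probe stood for each gene. Among 17715 genes outside the 9, those most like Glud1 were Phc2 (r = 0.92) and Tdrp (r = 0.89). The brightest Slc4a4 probe varied most like Flt1 (r = 0.86) and Stab1 (r = 0.85), both known from endothelium. The likeness of the second Slc4a4 probe was not examined. Car2 varied most like Hsdl2 (r = 0.87) and Acot4 (r = 0.85), and Car4 most like Cyp2j8 (r = 0.85) and Sdf4 (r = 0.84). For Rhcg these were St14 (r = 0.83) and Cpt1b (r = 0.82), and for Rhbg Fbxw9 (r = 0.83) and Lhpp (r = 0.81). For Slc9a3 they were Gja1 (r = 0.81) and Sec24a (r = 0.80). Slc38a3 stood nearest Shisa5 (r = 0.78) and Gprc5c (r = 0.77), and Glul nearest Ctdsp2 (r = 0.76) and Dock3 (r = 0.73).

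Other genes of glutamine and glutamate handling, 19 of 19 tested, changed both ways in DKD against sham, where 5.47% of all genes were higher and 6.13% lower. Of the 19, 6 were higher, 2 lower and 11 did not pass, with a median of 0.15. Without sham 5 or without sham 6, 4 were higher and 1 lower, and under array median scaling 3 were higher and 2 lower. Pck1, which makes phosphoenolpyruvate for gluconeogenesis from the carbon that ammonia production leaves, was higher (0.79 ± 0.16, adjusted p = 0.00254). Gpt2, the mitochondrial alanine aminotransferase, was higher by 0.82 ± 0.18 (adjusted p = 0.0043), and Slc7a8, a basolateral amino acid exchanger, by 0.80 ± 0.17 (adjusted p = 0.0025). Ggt1, which cleaves glutathione at the brush border, was lower (-0.89 ± 0.13, adjusted p = 0.00016). In enarodustat against DKD 0 of the 19 passed, 7 had an unadjusted p under 0.05 (10.9% of all genes did), and the median was -0.14. Up to 2 of the 19 passed under other settings, and 1, Ggt1, without DKD 4 (0.48, adjusted p = 0.0473). In enarodustat against sham, where 8.74% of all genes were higher and 6.75% lower, 2 of the 19 were higher and 1 lower. Ggt1 was at -0.47 ± 0.13 (adjusted p = 0.0179), Gpt2 at 0.71 ± 0.18 (adjusted p = 0.00928) and Slc7a8 at 0.61 ± 0.17 (adjusted p = 0.0137). None of these 3 calls held with slide row as a term.

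Of 20 other proton and bicarbonate genes 18 were tested. In DKD against sham, where 5.47% of all genes were higher and 6.13% lower, 4 of the 18 were higher and 1 was lower. The other 13 did not pass, and the median of the 18 was 0.07. The 4 largest changes were those of Slc26a6, an apical anion exchanger (1.01 ± 0.16, adjusted p = 0.000227), Slc9a8, a sodium/proton exchanger (-1.34 ± 0.32, adjusted p = 0.00718), and the membrane carbonic anhydrases Car15 (0.95 ± 0.17, adjusted p = 0.000663) and Car14 (0.86 ± 0.13, adjusted p = 0.000157). Car14 and Car15 were thus higher where Car4, also bound to the membrane, was lower. In enarodustat against DKD 0 of 18 passed, 4 had an unadjusted p under 0.05 (10.9% of all genes did), and the median was -0.07. In enarodustat against sham, where 8.74% of all genes were higher and 6.75% lower, 3 of the 18 were higher and 3 lower. Slc26a6 was at 1.20 ± 0.16 (adjusted p = 2.91e-05) and Slc9a8 at -1.08 ± 0.32 (adjusted p = 0.0238). Car15 was at 0.74 ± 0.17 (adjusted p = 0.00403) and Car14 at 0.66 ± 0.13 (adjusted p = 0.00141). Without sham 3, 3 of the 18 were higher and 0 lower. Of the 4 named, Slc26a6 alone still passed with slide row as a term.

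**Figure D5:**
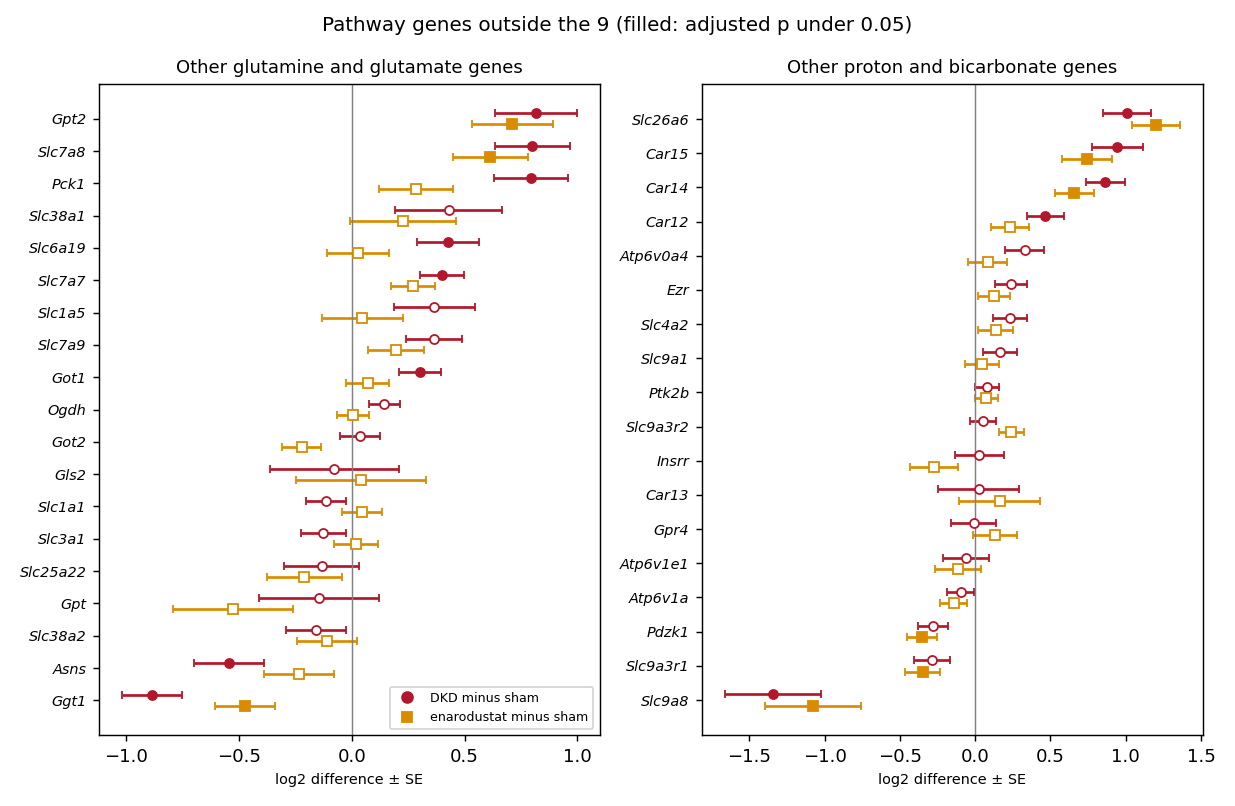
Log2 difference ± SE (horizontal axis) of 19 other glutamine and glutamate genes and 18 other proton and bicarbonate genes, as circles for DKD minus sham and squares for enarodustat minus sham. Filled markers passed at an adjusted p under 0.05; Slc26a6 lies at 1.01 and 1.20 and Ggt1 at -0.89 and -0.47.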

How the data were processed

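Kidney RNA of 24 mice was measured on single-colour Agilent arrays, and groups were taken from the labels. The deposited spot values are intensity values that, per the file headers, the authors' scanner software (Agilent Feature Extraction 12.1.1.1) had background subtracted and detrended within each array, without scaling between arrays. Version 11.5.1.1 of that software and limma stand in the submitters' processing notes, with no role given. The deposited value table of the authors holds log2 values of 31409 probes, a scale found by comparison with the scanner values. Normexp background correction of the median spot signals with an offset of 50, then quantile normalization, matched all but 630 of 753816 of those values within 0.05 (median absolute difference 0.00858). Column medians of the table lie at 7.543 to 7.559.

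Control spots and values marked as outliers (20 among the genes tested) were removed, and repeated spots of a probe were averaged. RefSeq names (assembly GRCm38.p6), matched through unversioned accessions, were found for 32994 of 56605 probes. The probe with the highest mean signal stood for its gene, and a gene entered the test when 6 or more of the 24 arrays had that probe well above background (17736 genes). Levels are log2 signal minus that of the array's 75th percentile (signals of 187 to 388). One limma fit (R 4.3.3, limma 3.58.1) over all arrays, with group as the only term, gave the 3 contrasts. P-values are two-sided and Benjamini-Hochberg adjusted over all genes tested, with a threshold of 0.05. The fit was tested on simulated data. Alternatives changed the background correction, scaling, filter, probe choice, slide, slide row, replicate block and arrays used.

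The members and the lists were chosen with earlier results of these data known. All 9 members are named in every comparison, with up to 4 passing genes of largest change from each of the 2 pathway lists, and the 2 genes most like each member. The planned normexp setting on mean signals was not run, since median signals were used in its place. Some genes of the lists are not reported here.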

Additional observations from a re-analysis of the deposited data

Results flagged for a closer look

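One of the 27 sets of 9 or 6 arrays (9 genes in 3 groups) held an array set far from the rest. Glul on array enarodustat 3 stood at 3.312, and the next lowest enarodustat array at 3.797. The other 2 Glul probes were not low on that array, at -0.07 (the enarodustat median) and 2.17 (enarodustat range 2.12 to 2.53), so the gap belongs to 1 probe. Such a gap is met by chance in about 1 in 20 groups. The scanner software had marked that array for evaluation (spike-in slope 0.8865), and the part of this in the Glul level was not tested. Without it Glul stood at -0.37 for enarodustat minus sham (adjusted p = 0.0847) and at -0.36 for enarodustat minus DKD (adjusted p = 0.266).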

How the results depend on the processing

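Over the differences of the 9 genes, 292 values under other settings kept their sign and side of the threshold, 13 were lost, 3 gained and 16 reversed. With single arrays left out these numbers were 614, 16 lost and 18 reversed. Where calls changed, the cause was not tested. Genes called for DKD minus sham numbered 1303 under array median scaling. For enarodustat minus DKD they numbered 36 under array median scaling, 83 with no filter, 20 with slide row as a term, 66 with a replicate block and 47 with only the 2 groups. For enarodustat minus sham they numbered 889 with slide row as a term, and of the 9 genes 1 passed with slide row and 2 with the replicate block. Leaving out 1 array gave 1471 to 2260, 71 to 128 and 1967 to 3040 genes called, and 2 to 3, 0 and 3 to 4 of the 9. Array median scaling moved the median of all genes to -0.117 for DKD minus sham and -0.159 for enarodustat minus sham. Of genes called for enarodustat minus DKD 85.04% were higher, and 69.5% to 74.8% in the deposited table and with normexp or quantile normalization. Reversed differences, none called, were these. Glul DKD minus sham was 0.0898 in the deposited table, 0.0861 with normexp, 0.0669 with quantile normalization, 0.0118 as the mean of probes and 0.11 with slide row. Rhcg enarodustat minus sham was 0.0379 in the deposited table, 0.0400 with normexp and 0.0200 with quantile normalization. Rhbg DKD minus sham was -0.0905 under array median scaling and -0.0762 with slide row, and Slc4a4 was -0.0078 under array median scaling. Glud1 enarodustat minus sham was -0.11 under array median scaling and -0.57 with slide row, where Slc38a3 (-0.0908) and Slc9a3 (0.0343) enarodustat minus DKD, Slc4a4 (0.0363) and Pck1 (-0.14) enarodustat minus sham, and Slc26a6 (-0.0130) enarodustat minus DKD also reversed. Leaving out 1 array gave -0.0877 to 0.0560 for Glul, -0.0706 to 0.106 for Rhbg and -0.0644 to 0.215 for Slc4a4 (DKD minus sham), -0.00672 to 0.0836 for Glud1 (enarodustat minus sham), and -0.0664 to 0.0150 for Slc9a3 (enarodustat minus DKD). Glul enarodustat minus sham lost its call in the deposited table (adjusted p = 0.12), with normexp, quantile normalization, no filter, the mean of probes, slide row, the replicate block and without each of 14 arrays in turn. Car4 enarodustat minus sham lost its call with the replicate block (-0.41, adjusted p = 0.0565). The fit did not treat replicate numbers as pairs. Deviations of same-numbered DKD and enarodustat arrays correlated above 0.1 in 4 of 9 pairs (median 0.097). Arrays of different groups on the same slide had a median of 0.189. All 9 pairs lay on the same slide, so these values cannot separate a pairing from the slide. Depth on an array is its signal over background, which all 9 genes exceeded on every array.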
